A study of Homo sapiens with 10 samples.

Results

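The 10 genes described here encode the 2 cytoplasmic actins (ACTB and ACTG1), smooth muscle actin (ACTA2), the actin-binding proteins transgelin (TAGLN), calponin 1 and calponin 2 (CNN1, CNN2) and tropomyosin 1 and tropomyosin 2 (TPM1, TPM2), the regulatory myosin light chain MYL9, and serum response factor (SRF), the transcription factor for which many actin cytoskeleton genes are known targets. They were taken by gene name from the deposited expression table, 10 of 58735 genes. 9 of the 10 reached 1 FPKM (fragments per kilobase of gene, scaled to library depth) in at least 2 libraries and were tested among 13927 genes. CNN1 did not reach that level, and ACTA2 reached it only through the libraries of 1 adapted colony, BR16.

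RNA was sequenced from TPC-1, an established human papillary thyroid carcinoma cell line whose CCDC6-RET gene fusion gives a constitutively active RET kinase. All 5 groups carry that fusion, and each group had 2 libraries, which the series' design text calls biological replicates. The groups were parental cells in the solvent DMSO for 24 h, parental cells in 5 µM BLU667 (pralsetinib, a selective RET inhibitor) for 24 h, and 3 adapted colonies named BR8, BR10 and BR16, grown in 5 µM BLU667 for more than 50 days according to the sample labels and for more than 5 months according to the design text. Each adapted colony is 1 derived line, so its 2 libraries measure the spread within that colony. The p-values measure the spread between libraries of a group. Every comparison with DMSO below uses the same 2 DMSO libraries.

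Actin exists as free monomer and as filament, and the exchange between them is read by transcription. Monomeric actin holds the SRF cofactors MRTF-A and MRTF-B in the cytoplasm, and when filament assembly uses up the monomer the cofactors are released and activate SRF at genes of the actin cytoskeleton, among them those of the actins and SRF itself. A separate set of cofactors, the ternary complex factors ELK1, ELK3 and ELK4, couples SRF to the MAP kinase cascade that lies downstream of RET and directs it to immediate early genes. In smooth muscle, ACTA2, TAGLN, CNN1 and MYL9 are known contractile SRF targets, and they are also expressed by myofibroblasts and some carcinoma cells.

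Between 15243703 and 21904245 reads per library fell in genes. Of 8 thyroid follicular markers 3 passed the expression filter: PAX8 lay between 35.3 and 94.7 FPKM, while the differentiation product TG stayed at or below 0.23 FPKM. Of 9 muscle markers only SMTN passed (2.24 to 9.17 FPKM), and MYOCD and CASQ2 were listed at 0 in all 10 libraries. The summed muscle markers ran from 5.38 to 7.17 FPKM in DMSO, 2.63 to 3.44 in BLU667, 6.13 to 6.14 in BR8, 4.73 to 6.23 in BR10 and 9.15 to 9.33 in BR16. Of 8 fibroblast markers 3 passed, with sums of 3.16 to 3.39, 13.4 to 17.9, 6.26 to 7.53, 0.993 to 1.14 and 3.77 to 4.25 FPKM in the same order, and DCN and COL1A2 were listed at 0 in every library. Different genes made up these sums. PDGFRB was at 11.8 and 15.4 FPKM in BLU667 and at 0.144 and 0.108 in BR8. LUM was at 4.62 and 6.43 FPKM in BR8 and at or below 0.364 elsewhere. Of 6 epithelial markers 3 passed, with sums of 49.3 to 63.3 FPKM in DMSO, 28.4 to 28.8 in BLU667, 47.3 to 53.0 in BR8, 46.2 to 49.2 in BR10 and 98.4 to 110.6 in BR16, and none of 7 endothelial and immune markers passed. The epithelial sums were mostly KRT8 and KRT18, while EPCAM and CDH1 stayed at or below 0.197 and 0.1 FPKM. The part of these markers in the results below was not tested, and in bulk RNA fewer cells of a type cannot be told apart from less RNA per cell. Differences between libraries also followed the GC content of the genes. Across tested genes the Spearman correlation of the difference with GC was 0.627 between the 2 DMSO libraries, -0.127 for BLU667 against DMSO, -0.286, -0.242 and 0.267 for BR8, BR10 and BR16 against DMSO, and -0.615 for BR8 against BR16. Apart from ACTA2 (52.2% GC) and TPM1 (49.5%), the members lay between 57.4% and 61.0% GC against a median of 48.1% for all tested genes, so values with this trend removed are given where they change a call or move a called value by over 1.5 times. Such values are given for the members only, and the calls of other genes below were not checked against the trend.

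SRF binds the CArG box, which is CC, then 6 bases of A or T, then GG. The RefSeq promoter table (GRCh38.p14, 250 bases before to 50 after a start site) held entries for 7 of the 10 genes, ACTG1, ACTA2, CNN1, CNN2, TPM1, TPM2 and SRF, and not for ACTB, TAGLN and MYL9. A CArG box on either strand stood in 454 of 35116 promoters of that table (1.29%), and a box with at most 1 mismatch stood in 6624 (18.9%). The 4 promoters below, read along the strand of each gene, are those of the members in which such a box was found, with the boxes in capitals. The SRF promoter (chr6:43171019-43171318, plus strand) held exact boxes that begin 30 and 10 bases before the start site, and a box with 1 mismatch 13 bases after it. The ACTG1 promoter (chr17:81512750-81513049, minus strand) held an exact box 94 bases before the start, and the CNN2 promoter (chr19:1026358-1026657, plus strand) held an exact box 89 bases before it. A promoter of ACTA2 (chr10:88952724-88953023, minus strand) held boxes with 1 mismatch each at 121 and 71 bases before the start. In the promoters of CNN1, TPM1 and TPM2, in the other ACTA2 promoter and in the other SRF promoter, these letters with at most 1 mismatch were not in the window.
SRF: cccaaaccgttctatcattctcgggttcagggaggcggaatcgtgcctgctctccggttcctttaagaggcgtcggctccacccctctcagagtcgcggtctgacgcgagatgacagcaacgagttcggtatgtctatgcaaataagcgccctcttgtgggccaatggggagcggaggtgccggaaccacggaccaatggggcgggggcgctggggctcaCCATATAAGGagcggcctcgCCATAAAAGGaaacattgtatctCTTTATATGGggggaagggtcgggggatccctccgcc
ACTG1: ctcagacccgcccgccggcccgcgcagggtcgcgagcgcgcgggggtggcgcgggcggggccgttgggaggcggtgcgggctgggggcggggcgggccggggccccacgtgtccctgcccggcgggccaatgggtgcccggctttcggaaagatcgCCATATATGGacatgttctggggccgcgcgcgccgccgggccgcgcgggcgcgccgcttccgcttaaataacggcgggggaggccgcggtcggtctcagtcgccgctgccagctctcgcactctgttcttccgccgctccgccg
CNN2: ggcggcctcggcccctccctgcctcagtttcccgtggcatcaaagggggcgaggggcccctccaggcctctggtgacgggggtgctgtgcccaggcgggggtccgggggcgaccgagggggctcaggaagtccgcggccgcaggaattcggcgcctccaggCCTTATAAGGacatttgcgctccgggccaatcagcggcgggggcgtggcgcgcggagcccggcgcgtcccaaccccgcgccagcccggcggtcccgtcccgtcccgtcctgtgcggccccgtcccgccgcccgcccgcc
ACTA2: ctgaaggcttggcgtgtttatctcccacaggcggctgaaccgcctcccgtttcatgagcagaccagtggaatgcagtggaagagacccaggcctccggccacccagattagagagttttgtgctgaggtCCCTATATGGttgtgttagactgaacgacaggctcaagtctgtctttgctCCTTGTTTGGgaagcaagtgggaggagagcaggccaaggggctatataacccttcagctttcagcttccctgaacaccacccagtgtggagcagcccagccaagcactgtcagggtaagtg

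SRF itself (chr6:43171299-43181507, plus strand, GRCh38, the build of all gene positions here; ENSG00000112658) was lower after 24 h of BLU667 and lower still in BR8, and its level in BR16 was near that in DMSO. It stood at 14.0 and 10.8 FPKM in the DMSO libraries, 9.48 and 8.34 after BLU667, 5.82 and 4.62 in BR8, 8.01 and 8.68 in BR10, and 13.1 and 12.2 in BR16. The BR8 libraries were the lowest of the 10, and the DMSO and BR16 libraries were the highest and overlapped. On the scale of log2(FPKM + 1), which is used for every log2 difference here and understates the change of genes with low values, SRF fell by 0.43 ± 0.14 (SE) in BLU667 against DMSO (limma, adjusted p = 0.0277). In BR8 the difference from DMSO was -1.10 ± 0.14 (adjusted p = 0.000327), a 2.37-fold lower mean. BR10 differed by -0.51 ± 0.14 (adjusted p = 0.02). The BR16 difference was 0.04, with a 95% interval from -0.28 to 0.36 (adjusted p = 0.846). BR8 was below BR16 by 1.14 ± 0.14 (adjusted p = 0.000704). With the GC trend removed, SRF differed by -0.26 in BLU667 (adjusted p = 0.0217), -0.73 in BR8 (adjusted p = 0.000136) and -0.22 in BR10 (adjusted p = 0.055), and BR8 lay 0.56 below BR16 (-0.56, adjusted p = 0.00178). The SRF call in BLU667 was lost in 5 of 22 alternatives, among them without DMSO replicate 1 (-0.25, adjusted p = 0.15) or BLU667 replicate 2 (adjusted p = 0.14), and the BR10 call in 6 of 22, among them without DMSO replicate 1 (-0.33, adjusted p = 0.0908) or either BR10 library (adjusted p = 0.106 and 0.0518).

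The cytoplasmic actins, which build the filaments of nearly every cell, moved apart after 24 h of BLU667. ACTG1 rose and ACTB fell, and the ACTB call was lost in 6 of 22 alternatives. ACTG1 (chr17:81509971-81523847, minus strand; ENSG00000184009) was at 1289 and 1436 FPKM in DMSO, 3524 and 3456 after BLU667, 2511 and 2451 in BR8, 2175 and 2312 in BR10, and 2317 and 2339 in BR16. Every treated or adapted library exceeded both DMSO libraries, and the acute BLU667 libraries were the highest. The acute rise was 2.56-fold, a log2 difference of 1.36 ± 0.09 (adjusted p = 6.45e-06). The colonies were 0.87 (BR8, adjusted p = 0.00013), 0.72 (BR10, adjusted p = 0.000581) and 0.77 (BR16, adjusted p = 0.000264) above DMSO on the log2 scale. As a mean over the colonies ACTG1 lay below the acute level by 0.57 ± 0.08 (adjusted p = 0.000268). The 3 colonies were not called different from each other for ACTG1 (moderated F test in limma, adjusted p = 0.383). That F test stayed uncalled in 21 of 22 alternatives. After quantile normalization the F test called ACTG1 (adjusted p = 0.00162), with BR8 0.95 and BR10 0.80 above BR16 (adjusted p = 0.00128 and 0.00278), and with the GC trend removed BR8 lay 0.42 above BR16 (adjusted p = 0.0337, against 0.09 and adjusted p = 0.438 before). Without the expression filter the colony calls against DMSO were lost (adjusted p = 0.0949, 0.192 and 0.145 for BR8, BR10 and BR16), and after quantile normalization the BR16 difference was 0.37 (adjusted p = 0.0581). The difference of the colony mean from the acute level was also lost, at -0.21 after quantile normalization (adjusted p = 0.145) and at adjusted p = 0.151 without the filter.

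ACTB (chr7:5527147-5563784, minus strand; ENSG00000075624) was at 1416 and 1546 FPKM in DMSO, 1213 and 1073 after BLU667, 2185 and 2369 in BR8, 2053 and 2164 in BR10, and 1334 and 1316 in BR16. BR8 and BR10 lay above all other libraries, and BLU667 lay below them. The acute difference was -0.37 ± 0.10 (adjusted p = 0.0118). That call was lost with the GC trend removed (-0.24, adjusted p = 0.159), without DMSO replicate 2 (adjusted p = 0.0542), without BLU667 replicate 2 (adjusted p = 0.0539), without the filter (adjusted p = 0.336) and with only the 2 groups fitted (adjusted p = 0.115). ACTB was higher than in DMSO by 0.62 ± 0.10 in BR8 (adjusted p = 0.00122) and by 0.51 ± 0.10 in BR10 (adjusted p = 0.00476), and the BR16 difference of -0.16 was not called (adjusted p = 0.233). After quantile normalization ACTB was called lower in BR16 than in DMSO (-0.45, adjusted p = 0.00496). BR8 exceeded BR16 by 0.78 ± 0.10 (adjusted p = 0.000851), and BR10 exceeded BR16 by 0.67 ± 0.10 (adjusted p = 0.00163). With the GC trend removed these colony differences were 1.24 (adjusted p = 0.000469) and 1.05 (adjusted p = 0.000952). Without the filter the BR8 and BR10 calls against DMSO and the differences from BR16 were not called (adjusted p = 0.129, 0.251, 0.0719 and 0.125).

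**Figure D1:**
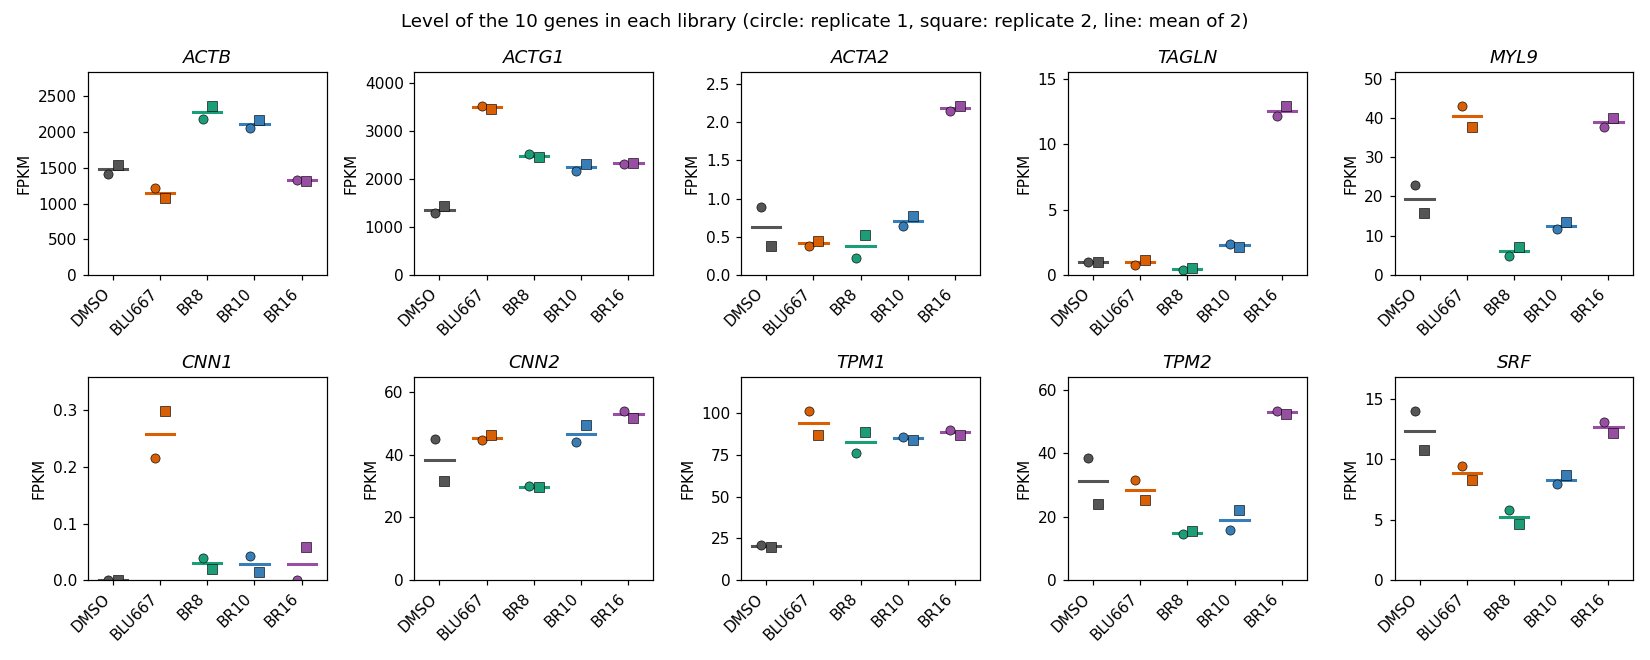
Level of each of the 10 genes in FPKM on a linear axis that starts at 0, with a scale of its own for each gene, 1 point per library in the 5 groups and a line at the mean of 2 libraries. TPM1 is near 20 FPKM in both DMSO libraries and between 76.0 and 101.2 in the other 8, whereas TAGLN stands at 12.2 and 12.9 FPKM in BR16 and at or below 2.34 elsewhere.

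Since FPKM are per length, the actins can be set against each other within a library. ACTG1 was 0.910 and 0.929 times ACTB in the DMSO libraries, 2.91 and 3.22 times in BLU667, 1.03 and 1.15 times in BR8, 1.06 and 1.07 times in BR10, and 1.74 and 1.78 times in BR16. The ratio was below 1 only in DMSO, and BR16 lay between the acute libraries and the other colonies with no overlap. Of the summed FPKM of 6 actin genes, ACTB made up 52.1% ± 0.35 (SD, n = 2) in DMSO, 24.6% ± 1.36 in BLU667, 47.8% ± 1.86 in BR8, 48.4% ± 0.155 in BR10 and 36.2% ± 0.371 in BR16. That sum was 2844 ± 196 FPKM in DMSO, 4633 ± 147 in BLU667, 4758 ± 87.6 in BR8, 4353 ± 176 in BR10 and 3655 ± 2.6 in BR16. The summed actin of BLU667 and BR8 differed by less than the spread within BLU667, while the 2 groups did not overlap in the share of ACTB. With 2 libraries against 2, no exact two-sided permutation test can go below p = 0.333, so these shares are a description. The actin genes and their pseudogenes are nearly identical in coding sequence, and how reads shared between copies were counted could move the split.

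**Figure D2:**
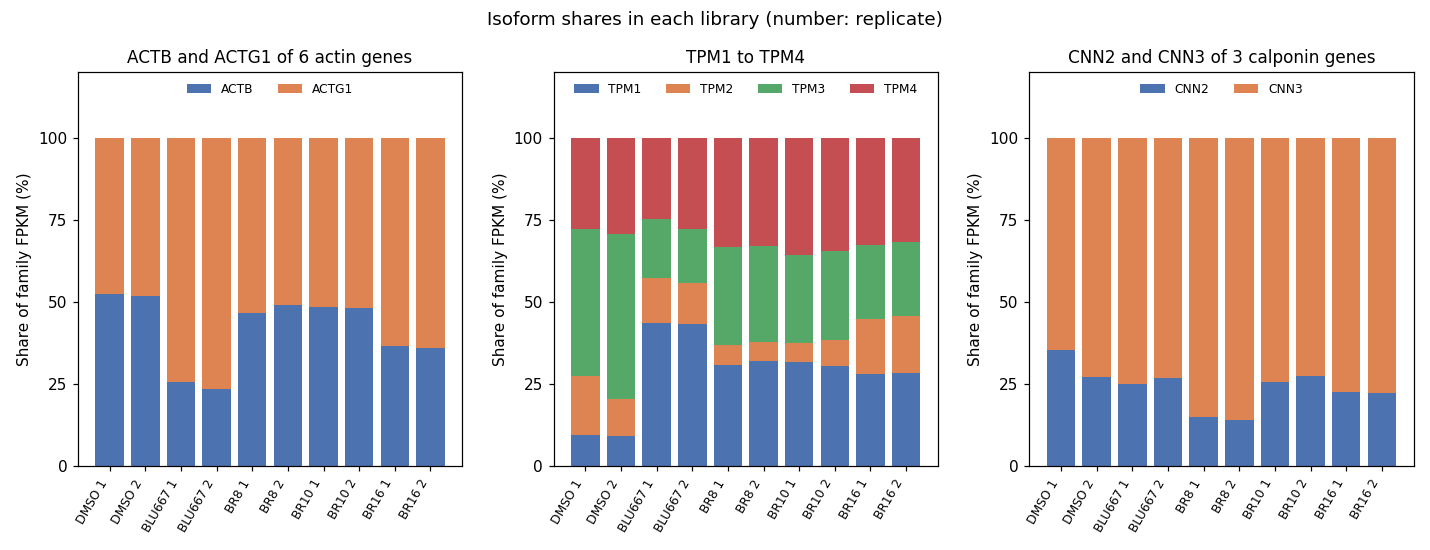
Share of family FPKM in percent for the cytoplasmic actins, the 4 tropomyosins and calponins 2 and 3, as stacked bars, 1 for each library. ACTB goes from 52.1% of actin FPKM in DMSO to 24.6% in BLU667, and TPM1 goes from 9.47% to 43.4% of tropomyosin FPKM.

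TPM1, a tropomyosin that coats actin filaments and governs access of myosin and cofilin, showed the largest acute change of the tested members and was higher than in DMSO in every colony. TPM1 (chr15:63042632-63071915, plus strand; ENSG00000140416) was at 20.9 and 20.0 FPKM in DMSO, 101.2 and 86.7 after BLU667, 76.0 and 88.8 in BR8, 85.8 and 84.0 in BR10, and 90.0 and 86.9 in BR16. Both DMSO libraries lay far below all others, and the acute and adapted libraries together ran from 76.0 to 101.2 FPKM. The mean was 4.60-fold higher after BLU667, with a log2 difference of 2.14 ± 0.10 (adjusted p = 9.82e-07). It was 4.04-fold, 4.16-fold and 4.33-fold higher in BR8, BR10 and BR16 (adjusted p = 2.99e-06, 6.24e-06 and 2.71e-06). Between the colonies' mean and the acute group the log2 difference was -0.14, with a 95% interval from -0.33 to 0.06 (adjusted p = 0.191), and it was called after quantile normalization (-0.25, adjusted p = 0.0297). The colonies were not called different for TPM1 (adjusted p = 0.653). The TPM1 calls against DMSO held in every alternative run. Of the exonic bases of TPM1, 21.4% are shared with genes on the opposite strand, which a library without strand cannot separate. The antisense gene TPM1-AS measured 0.177 and 0.283 FPKM in DMSO and 1.86 and 1.70 in BLU667, against the far higher TPM1 values.

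TPM2 (chr9:35681992-35690121, minus strand; ENSG00000198467), the tropomyosin typical of slow and smooth muscle, did not follow TPM1. It was at 38.7 and 24.0 FPKM in DMSO, 31.7 and 25.3 after BLU667, 14.5 and 15.6 in BR8, 15.9 and 22.0 in BR10, and 53.4 and 52.5 in BR16. The DMSO and BLU667 libraries overlapped, BR16 was above all other libraries, and BR8 and BR10 were below both parental groups. The acute log2 difference was -0.10, with a 95% interval from -0.62 to 0.41 (adjusted p = 0.718). Against DMSO, TPM2 was lower in BR8 by 0.98 (-0.98 ± 0.22, adjusted p = 0.00698) and higher in BR16 by 0.78 ± 0.22 (adjusted p = 0.0219). BR8 and BR16 differed by -1.75 ± 0.22 (adjusted p = 0.000816), a 3.53-fold higher mean in BR16. The BR10 difference of -0.67 (adjusted p = 0.0424) was lost in 12 of 22 alternatives and fell to -0.34 without DMSO replicate 1 (adjusted p = 0.209), and the BR16 call was lost in 4 of 22: without DMSO replicate 2 (0.44, adjusted p = 0.114), without BR16 replicate 1 or 2 (adjusted p = 0.0867 and 0.0816) and with no filter (adjusted p = 0.0684).

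Within the tropomyosin family the acute groups differed in proportion while their summed FPKM overlapped. The summed FPKM of TPM1 to TPM4 was 215.7 ± 0.894 in DMSO and 216.1 ± 21.8 in BLU667 (SD, n = 2), and 260.8, 272.7 and 311.9 in BR8, BR10 and BR16. TPM1 made up 9.47% ± 0.257 of it in DMSO, 43.4% ± 0.374 in BLU667, 31.6% ± 0.917 in BR8, 31.1% ± 0.834 in BR10 and 28.4% ± 0.186 in BR16. TPM3, a broadly expressed tropomyosin, went the other way, from 47.5% ± 4.03 in DMSO to 17.2% ± 0.855 in BLU667 and 29.6%, 26.8% and 22.4% in the colonies. FPKM here divide by the length of all exons of a gene, 12876 bases for TPM1 and 3248 for TPM2. The shares and the summed FPKM, and how they change between groups, therefore depend on these lengths. The fold change in FPKM of a single gene does not.

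MYL9 (chr20:36541484-36551447, plus strand; ENSG00000101335), the regulatory light chain through which myosin contractility is switched on, rose acutely and then differed between colonies. It was at 22.9 and 15.7 FPKM in DMSO, 43.1 and 37.8 after BLU667, 4.86 and 7.24 in BR8, 11.6 and 13.4 in BR10, and 37.7 and 39.9 in BR16. The BLU667 and BR16 libraries overlapped and lay above DMSO, while BR8 and BR10 lay below it. MYL9 was 2.10-fold higher after BLU667 (log2 difference 1.05 ± 0.20, adjusted p = 0.00211) and higher in BR16 than in DMSO by 1.00 ± 0.20 (adjusted p = 0.00426). In BR8 its mean was 3.19-fold lower than in DMSO (-1.52 ± 0.20, adjusted p = 0.000401), and in BR10 the difference of -0.57 ± 0.20 missed the threshold (adjusted p = 0.0527). BR16 and acute BLU667 differed by -0.05, with a 95% interval from -0.51 to 0.41 (adjusted p = 0.833). The mean over the colonies lay 0.36 below DMSO (-0.36 ± 0.16, adjusted p = 0.0988), and without BR16 that value was -1.04 (adjusted p = 0.0014).

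TAGLN (chr11:117199321-117204782, plus strand; ENSG00000149591), an actin-bundling protein of smooth muscle and an established SRF target, was not called after acute BLU667 and was high in BR16. Its level was 1.01 and 1.00 FPKM in DMSO, 0.798 and 1.18 after BLU667, 0.421 and 0.546 in BR8, 2.34 and 2.18 in BR10, and 12.2 and 12.9 in BR16. The DMSO and BLU667 libraries overlapped, and the colonies stood in the order BR8, BR10, BR16 with no overlap. These values rest on 29 reads in the lowest library and 900 in the highest. The acute log2 difference was -0.02, with a 95% interval from -0.28 to 0.24 (adjusted p = 0.902). In BR16 the mean was 12.5-fold that in DMSO (log2 difference 2.76 ± 0.11, adjusted p = 9.91e-07), and in BR10 2.25-fold (0.70 ± 0.11, adjusted p = 0.00177). BR8 was lower than DMSO by 0.43 (-0.43 ± 0.11, adjusted p = 0.0123), a call lost in 4 of 22 alternatives, among them with the GC trend removed (-0.23, adjusted p = 0.159) and without BR8 replicate 1 (adjusted p = 0.0689). BR16 exceeded BR8 26.0-fold (adjusted p = 3.55e-06). The colony mean was 1.01 ± 0.09 above DMSO (adjusted p = 5.43e-05) and 0.13 without BR16 (adjusted p = 0.286). On the opposite strand PCSK7 shares 11.4% of the exonic bases of TAGLN and stood between 0.425 and 1.36 FPKM in all libraries.

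ACTA2 (chr10:88935074-88991339, minus strand; ENSG00000107796), the actin of smooth muscle and myofibroblasts, was scarce. Its level was 0.888 and 0.382 FPKM in DMSO, 0.382 and 0.445 after BLU667, 0.229 and 0.519 in BR8, 0.644 and 0.770 in BR10, and 2.15 and 2.22 in BR16. Those are 12 reads in the lowest library and 117 in the highest, and only the BR16 libraries stood apart from the others. BR16 exceeded DMSO 3.44-fold (log2 difference 0.98 ± 0.18, adjusted p = 0.00253). Because BR16 alone carried ACTA2 past the filter, this difference gives no support beyond the values themselves. The acute difference was -0.19, with a 95% interval from -0.60 to 0.21 (adjusted p = 0.373). ACTA2 reached 0.0598% of actin FPKM in BR16 and a mean of 0.0228% or less in each other group. Genes on the opposite strand, among them FAS and ACTA2-AS1, share 30.1% of its exonic bases, and FAS was at 6.36 and 5.91 FPKM in BR16 against 7.29 and 10.8 in DMSO.

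Calponins bind actin and damp myosin activity, calponin 1 in smooth muscle and calponin 2 in many cells. CNN1 (chr19:11538717-11550323, plus strand; ENSG00000130176) had no read in either DMSO library, 11 and 15 reads after BLU667, 2 and 1 in BR8, 2 and 1 in BR10, and 0 and 3 in BR16. The 26 reads of the BLU667 group correspond to 0.257 FPKM. This is 8.51-fold the floor set for DMSO, where the 3 reads that a count of 0 allows over the group correspond to 0.0302 FPKM. That floor covers counting error in DMSO only. Counting error in the 26 reads and the spread between libraries are left out, so 8.51 is not a lower limit. CNN1 was not tested in the main fit. It entered the fit without the filter, where it was called higher in BLU667 than in DMSO.

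CNN2 (chr19:1026581-1039068, plus strand; ENSG00000064666) stood at 45.1 and 31.6 FPKM in DMSO, 44.7 and 46.2 after BLU667, 29.9 and 29.7 in BR8, 44.0 and 49.3 in BR10, and 53.9 and 51.8 in BR16. BR8 was the lowest group and BR16 the highest, and the DMSO libraries overlapped those of BLU667 and BR10. The acute log2 difference was 0.26, with a 95% interval from -0.08 to 0.60 (adjusted p = 0.157), and 0.39 with the GC trend removed (adjusted p = 0.00487). Removing that trend also brought calls in BR10 against DMSO (0.47, adjusted p = 0.00341, against 0.30 and adjusted p = 0.143) and in the colony mean (0.23, adjusted p = 0.0257, against 0.15 and adjusted p = 0.344). CNN2 was higher in BR16 than in DMSO by 0.47 ± 0.15 (adjusted p = 0.029), and by 0.30 with the GC trend removed (adjusted p = 0.0229). That call was lost in 5 of 22 alternatives: without DMSO replicate 2 (0.22, adjusted p = 0.0726), without BR16 replicate 1 or 2 (adjusted p = 0.122 and 0.0903), with no filter (adjusted p = 0.0751) and with only the 2 groups fitted (adjusted p = 0.0929). BR8 lay below BR16 (-0.81 ± 0.15, adjusted p = 0.00327), and by -0.37 with the GC trend removed (adjusted p = 0.0144). Its paralog CNN3 was the more abundant calponin in every group, at 68.8% ± 5.86 of calponin FPKM in DMSO (SD, n = 2) and 85.4% ± 0.79 in BR8.

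**Figure D3:**
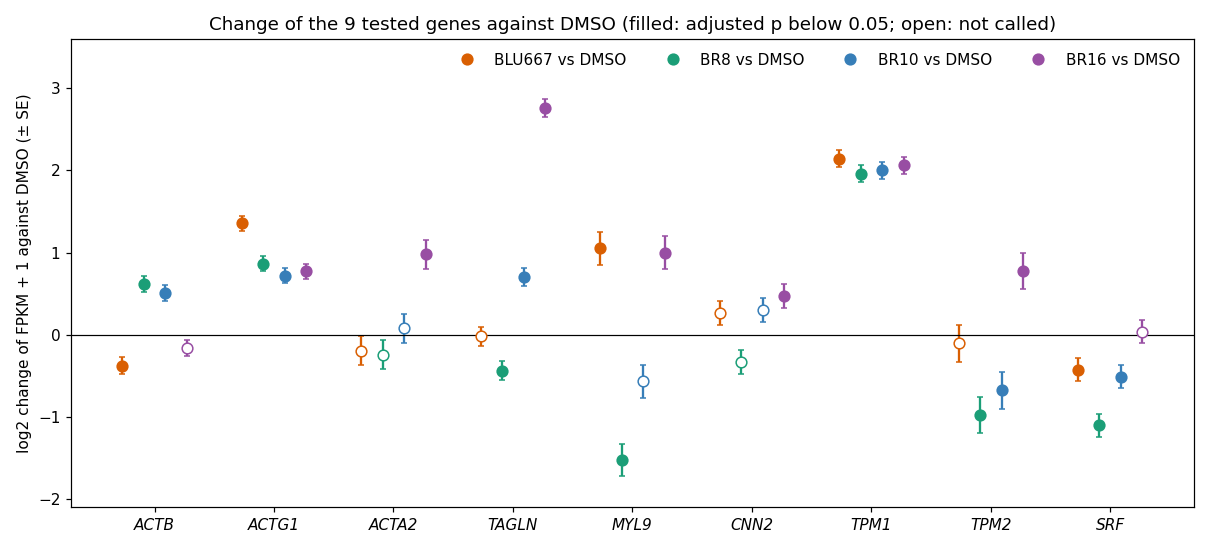
Log2 differences of the tested members with standard errors, for BLU667 and each adapted colony against DMSO, on the scale of log2(FPKM + 1), filled where called (adjusted p below 0.05) and open otherwise. TPM1 and ACTG1 lie above 0 in all 4 comparisons, whereas TAGLN, MYL9 and TPM2 lie below 0 in BR8 and above it in BR16.

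Counted over the 9 tested members, acute BLU667 came with rises in 3 (TPM1, ACTG1 and MYL9) and falls in 2 (SRF and ACTB), where 29.0% of all tested genes were called higher and 31.2% lower. The count of falls was 1 without either DMSO library and 0 without BLU667 replicate 2. The members' median log2 difference was -0.02, against -0.01 for all tested genes. The members were chosen with earlier results of these data known, so these counts and those by colony below are descriptions. Against DMSO the mean of the adapted colonies was higher for 4 (TPM1, TAGLN, ACTG1 and ACTB) and lower for 1 (SRF), with 22.9% and 26.3% of all genes called in these directions. Without BR8 the colony mean differed by -0.24 for SRF (adjusted p = 0.15) and by 0.18 for ACTB (adjusted p = 0.139). When the 3 colony means served as the replicates only TPM1 was called (adjusted p = 0.0062). Against acute BLU667 the colony mean was higher for 3 (TAGLN, ACTB and ACTA2) and lower for 2 (MYL9 and ACTG1), against 32.4% and 28.7% of all genes, and with the colony means as replicates none was called. The ACTA2 call gives no support, since ACTA2 passed the filter only through BR16.

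Read colony by colony, the members called were not the same in each line. The colonies also differed in 58.1% of all tested genes by the F test. In BR8, 3 were higher (TPM1, ACTG1 and ACTB) and 4 lower (MYL9, SRF, TPM2 and TAGLN) than in DMSO, where 24.0% and 27.3% of all genes were called. In BR10, 4 were higher (TPM1, ACTG1, TAGLN and ACTB) and 2 lower (TPM2 and SRF), where 19.2% and 21.5% of all genes were called, and the count of lower members was 0 without DMSO replicate 1 or BR10 replicate 1 and 1 without BR10 replicate 2 or either BR16 library. In BR16, 7 were higher, all tested members but SRF and ACTB and with ACTA2 among them, and 0 were lower, where 21.9% and 23.6% of all genes were called. Since ACTA2 passed the filter only through BR16, its call in BR16 gives no support, which leaves 6 of 8 higher. The BR16 count was 4 with either BR16 library left out. In those fits ACTA2 no longer passed the filter and was not counted. The median of the tested members, ACTA2 included, was -0.33 in BR8, 0.30 in BR10 and 0.78 in BR16, against -0.03, -0.01 and -0.01 for all genes. The F test called 7 of 9 members different among the colonies, all but TPM1 and ACTG1, against 58.1% of all genes. ACTA2 is among the 7, and since it passed the filter only through BR16 its call gives no support, which leaves 6 of 8. The largest log2 difference between any 2 colonies was 0.10 for TPM1 and 0.15 for ACTG1, and for ACTG1 it was 0.95 after quantile normalization.

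Among the regulators of SRF, the list of cofactors and actin-sensing genes (16 of 18 tested) had 5 higher and 6 lower after BLU667, with a median of -0.05. Those counts lie near the shares of all tested genes, 29.0% higher and 31.2% lower. This list and those below were chosen with earlier results of these data known, so their counts and medians are descriptions. Their calls were not checked with the GC trend removed or in the other alternatives. RHOB, a small GTPase gene, rose from 27.0 FPKM in DMSO to 189.7 in BLU667 (2.76 ± 0.12, adjusted p = 5.63e-07) and averaged 156.6, 97.5 and 170.9 FPKM in BR8, BR10 and BR16. The MRTF-A gene MRTFA rose acutely (0.80 ± 0.11, adjusted p = 0.000316) from 5.46 to 10.2 FPKM. It was higher than in DMSO in BR16 (0.53, adjusted p = 0.00441) and lower in BR8 (-0.31, adjusted p = 0.0394). MRTFB differed acutely by 0.13 (adjusted p = 0.232), and the muscle cofactor MYOCD was listed at 0 in all libraries. Of the ternary complex factors, ELK1 fell acutely (-1.46 ± 0.15, adjusted p = 5.5e-05) and was lower in BR8, BR10 and BR16 (-1.50, -1.15 and -0.71, adjusted p = 7.87e-05, 0.000534 and 0.00451). ELK3 was lower acutely (-0.51, adjusted p = 0.00462) and in the colony mean (-0.96 ± 0.09, adjusted p = 7.72e-05), whereas ELK4 rose acutely by 0.47 (adjusted p = 0.00491). The formins DIAPH1 and DIAPH3, which nucleate actin filaments, fell acutely (-1.12 ± 0.07 and -1.29 ± 0.11, adjusted p = 4.72e-06 and 2.66e-05). In the colony mean DIAPH1 was lower than in DMSO (-0.31, adjusted p = 0.00276) and DIAPH3 higher (0.32, adjusted p = 0.0193).

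Other known MRTF-SRF targets of the actin cytoskeleton, 21 genes that were all tested, had 11 higher, 4 lower and 6 not called after BLU667, with a median of 0.44, where 29.0% of all genes were higher and 31.2% lower. In the colony mean 13 were higher and 2 lower, with a median of 0.40, against 22.9% and 26.3% of all genes. Colony by colony 9 were higher and 3 lower in BR8 (24.0% and 27.3% of all genes), 13 and 1 in BR10 (19.2% and 21.5%), and 17 and 1 in BR16 (21.9% and 23.6%). This list too was chosen with earlier results of these data known, so its counts beside those shares are a description. FILIP1L, MYH9 (the heavy chain of non-muscle myosin), FHL2 and TGFB1I1 rose acutely by 1.80 ± 0.15, 1.08 ± 0.14, 1.02 ± 0.13 and 1.18 ± 0.11 (adjusted p = 2.06e-05, 0.000219, 0.000196 and 4.21e-05). The LIM protein gene CSRP1 fell (-1.28 ± 0.13, adjusted p = 5.73e-05) and did not differ detectably from DMSO in the colony mean (0.12, adjusted p = 0.387). CCN1, a secreted matrix protein gene that also responds to YAP, went from 122 FPKM in DMSO to 231 in BLU667 and to 489, 485 and 627 in BR8, BR10 and BR16 (colony mean against DMSO 2.12 ± 0.09, adjusted p = 9.39e-07). Immediate early genes that SRF binds with ternary complex factors were mostly too low to test, 5 of 10 passing. Of these, MCL1 and IER2 fell acutely (-1.25 ± 0.07 and -0.73 ± 0.22, adjusted p = 3.11e-06 and 0.02) and none of the 5 was called higher. In the colony mean EGR1 was higher (1.22 ± 0.21, adjusted p = 0.00181) and IER3 lower (-0.77 ± 0.09, adjusted p = 0.000202) than in DMSO.

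**Figure D4:**
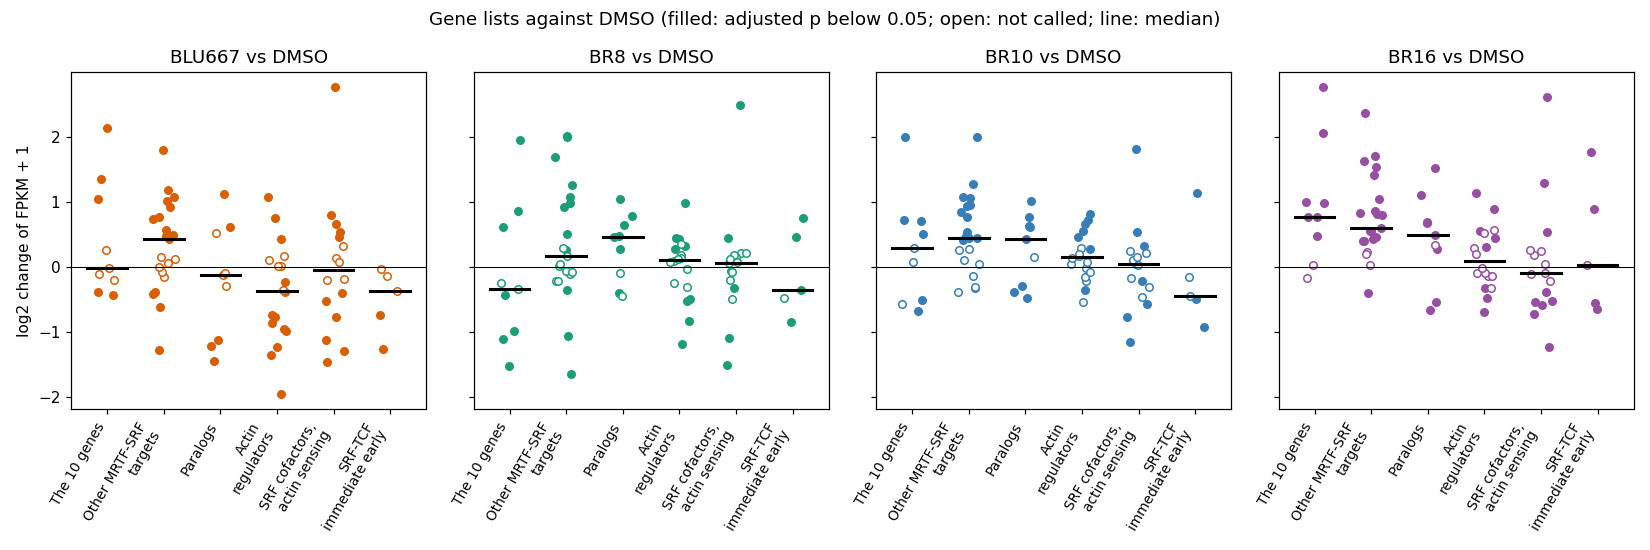
Log2 differences of the members and of the actin and SRF gene lists against DMSO, 1 point per tested gene, filled where called and open otherwise, with lines at the list medians. The median of the other MRTF-SRF targets is 0.44 after BLU667 and 0.60 in BR16, and that of the actin monomer and filament regulators is -0.36 after BLU667. The lists were chosen with earlier results of these data known, so these medians are descriptions.

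Genes of proteins that handle actin monomers and sever or cap filaments included those of profilin and cofilin, whose RNA was lower after acute treatment. Of 18 such genes, all tested, 10 were lower and 3 higher in BLU667, with a median of -0.36, where 31.2% of all genes were lower and 29.0% higher and the median was -0.01. Profilin (PFN1), which loads monomers onto filament ends, went from 309.5 to 78.9 FPKM (-1.95 ± 0.18, adjusted p = 3.13e-05), and cofilin (CFL1), which severs filaments, from 87.9 to 33.1 (-1.35 ± 0.21, adjusted p = 0.000742). The capping protein gene CAPG and the cyclase-associated protein gene CAP1 fell by 1.22 and 0.98 on the log2 scale (adjusted p = 7.97e-05 and 0.000437), while CAP2 rose by 1.08 ± 0.09 (adjusted p = 1.79e-05). In the colony mean 5 of the 18 were higher and 2 lower than in DMSO, with a median of 0.09, against 22.9% and 26.3% of all genes. The monomer-sequestering thymosin gene TMSB4X had mean levels of 459.6 FPKM (DMSO), 267.1 (BLU667), and 902.3, 753.8 and 844.9 in BR8, BR10 and BR16 (colony mean 0.86 ± 0.10, adjusted p = 0.000165). GSN and WDR1, both involved in filament disassembly, were higher in the colony mean by 0.75 ± 0.10 and 0.60 ± 0.07 (adjusted p = 0.000393 and 0.000176).

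Paralogs of the members gave 2 higher and 3 lower of 9 tested after BLU667, and 6 higher and 2 lower in the colony mean. All tested genes had 29.0% higher and 31.2% lower in BLU667, near the counts of the paralogs, and 22.9% and 26.3% in the colony mean. TPM3, TAGLN2 and ACTL6A fell acutely (-1.44 ± 0.11, -1.21 ± 0.09 and -1.12 ± 0.10, adjusted p = 1.35e-05, 1.39e-05 and 2.31e-05), and TAGLN3 and CNN3 rose (1.12 ± 0.16 and 0.61 ± 0.08, adjusted p = 0.000495 and 0.000197). TAGLN2, the transgelin of non-muscle cells, was at 227 FPKM in DMSO, 97.1 in BLU667, 274 in BR8, 185.4 in BR10 and 364.3 in BR16, far above TAGLN on the same per-length scale. TPM4 was higher in the colony mean by 0.60 ± 0.07 (adjusted p = 0.000151).

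Across the 10 libraries the protein-coding genes whose log2 levels ran most like those of SRF, among 11123 tested, were AKT2, RCC1L and HDGFL2 (Pearson r = 0.992, 0.987 and 0.980). For ACTB they were VPS29, ARHGAP21 and TXN (r = 0.979, 0.966 and 0.966), and for TAGLN SYCE1L, MRPS17 and SLC6A8 (r = 0.980, 0.959 and 0.958). These are descriptions over 5 pairs of libraries, each pair from the same group. Depth and the GC trend differed between libraries, also within a pair.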

How the data were processed

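The authors deposited 1 table of FPKM per gene and library with gene lengths and coordinates. Per the submitters' processing notes, CASAVA, STAR 2.5, HTSeq 0.6.1, DESeq2 and GRCh38 were used, and per the labels' protocols the libraries were not directional. FPKM times gene length gave whole reads in 100% of values (tolerance 0.05), which provided the depths. All 58735 genes had the coordinates of GENCODE 29, used here for exons and GC content. Testing was limited to genes that reached 1 FPKM in 2 or more libraries, and used limma 3.58.1 (R 4.3.3), with a variance trend, on log2(FPKM + 1). A single fit held all 10 libraries in 5 groups (5 residual degrees of freedom), with adjusted p-values (Benjamini-Hochberg over all tested genes) called below 0.05. The adapted mean weights the 3 colonies equally, and intervals are 95%. The code was tested on simulated data. The members and lists were chosen with earlier results of these data known. All members were named. From each list up to 5 genes called in BLU667 and up to 3 more called in the adapted mean, with the largest changes, were named, besides the SRF cofactors. The same fits were repeated with other pseudocounts, filters, scalings, models and left-out libraries. Calls in these repeats were read for the members only. An additional alternative, removal of the GC trend with a replicate block, was chosen after seeing the data. Promoters came from RefSeq (GRCh38.p14). No protein sequences were used here.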

Additional observations from a re-analysis of the deposited data

Results flagged for a closer look

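Several members differed between adapted colonies whose values against DMSO had opposite signs, with at least 1 of these values called. The test was that of limma for the difference between the colonies themselves (log2 difference, 2 libraries each). Of all tested genes, 24.1% were called higher and 24.5% lower in BR8 than in BR16. For BR10 against BR16 these shares were 21.1% and 22.0%, and for BR8 against BR10 11.3% and 11.5%. How many of all genes also had opposite signs against DMSO was not counted. Against DMSO, SRF in BR16 (0.04, adjusted p = 0.846) and ACTB in BR16 (-0.16, adjusted p = 0.233) were not called. Neither were CNN2 (-0.33, adjusted p = 0.0914) and ACTA2 (-0.24, adjusted p = 0.288) in BR8, nor MYL9 in BR10 (-0.57, adjusted p = 0.0527). TAGLN differed by -3.19 ± 0.11 between BR8 and BR16 (adjusted p = 3.55e-06) and by -1.14 ± 0.11 between BR8 and BR10 (adjusted p = 0.000285). MYL9 differed by -2.52 ± 0.20 between BR8 and BR16 (adjusted p = 0.00016) and by -1.56 ± 0.20 between BR10 and BR16 (adjusted p = 0.000863). TPM2 differed by -1.75 ± 0.22 between BR8 and BR16 (adjusted p = 0.000816) and by -1.45 ± 0.22 between BR10 and BR16 (adjusted p = 0.00183). ACTB went the other way, higher in BR8 than in BR16 by 0.78 ± 0.10 (adjusted p = 0.000851) and higher in BR10 than in BR16 by 0.67 ± 0.10 (adjusted p = 0.00163). SRF was lower in BR8 than in BR16 (-1.14 ± 0.14, adjusted p = 0.000704) and lower in BR10 than in BR16 (-0.55 ± 0.14, adjusted p = 0.0146). The latter SRF difference was -0.04 with the GC trend removed (adjusted p = 0.708). With that trend removed SRF in BR16 against DMSO was -0.18 (adjusted p = 0.105), the same sign as in BR8 and BR10. CNN2 was lower in BR8 than in BR16 (-0.81 ± 0.15, adjusted p = 0.00327). For ACTA2 the difference between BR8 and BR16 was -1.22 ± 0.18, a description only, since ACTA2 passed the expression filter only through BR16, where it is high.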

How the results depend on the processing

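Of 2018 recomputed values of the 9 members tested in the main fit, 1892 stayed called in the same direction or stayed uncalled. A call was lost in 90, gained in 34, and 2 were called with the sign reversed. The median of ratios scaling had a factor of 1 in every library, so its 90 values repeat the main fit. That alternative could not change a call, here or in the counts of alternatives given above. Values uncalled in both fits were not checked for direction, and some changed sign. CNN2 in BR10 against BR16, for example, went from -0.18 to 0.17 with the GC trend removed. ACTG1 in BR10 against BR16 became 0.80 after quantile normalization (adjusted p = 0.00278), and SRF in BR16 against DMSO became -0.18 with the GC trend removed and a replicate block (adjusted p = 0.047). The cause was not tested. With no filter CNN1 entered the fit, and 4 members were called higher in BLU667, with CNN1 added to the 3 of the main fit. The other counts that moved were 0 lower in BLU667, 2 higher in the adapted mean against DMSO, 1 higher in BR8, 2 higher and 0 lower in BR10, and 4 higher in BR16. Quantile normalization gave 1 lower in each of BLU667, BR10 and BR16 (ACTB in BR16). The replicate block, and likewise no variance trend, gave 1 lower in BR10, and fits of only the compared groups gave 0 lower in BLU667 and 0 in BR10. voom on recovered reads gave 2 lower in the adapted mean against DMSO. Removing the GC trend gave 1 lower in BLU667 and 1 in BR10, and with the replicate block also 1 lower in BR16. With 3 colony means as replicates, 1 was higher and 0 lower against DMSO and 0 higher and 0 lower against BLU667. Without BR8 the adapted mean had 0 lower against DMSO, and without BR16 it had 3 lower against DMSO and 1 higher and 4 lower against BLU667. Leaving out each library in turn gave 0 to 2 lower in BLU667, 1 to 3 lower in the adapted mean, 0 to 3 lower in BR10 and 4 to 7 higher in BR16. In those fits a group left with 1 library was assumed to vary like the others. Replicate numbers did not pair the libraries (correlations of deviations between groups from -0.163 to 0.109), and the replicate block ended 1 member call, TPM2 in BR10 (adjusted p = 0.0566). Depth limited CNN1 and ACTA2, with at most 15 and 117 reads per library.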
